A study of Mus musculus with 15 samples.

Results

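In mouse macrophages given lipopolysaccharide (LPS), a set of chromatin regions carried a peak of accessibility in every library taken at 2 h and in none taken at 4 h. These regions were chosen by the peak calls themselves. Overlapping peaks of all 15 libraries were merged into 104855 regions of the nuclear genome. A region was a member if a peak was called in no untreated library, in all 3 taken at 2 h and in none taken at 4 h, and in at most 2 of the 3 taken at 30 min and likewise at 1 h. The rule found 601 members, 0.573% of all regions. Because peak calls at these times define the set, its presence at 2 h and absence at 4 h are no finding.

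The cells were macrophages of C57BL/6 mice, grown from bone marrow in medium conditioned by L929 cells and used on day 7 of differentiation. The groups, with 3 libraries each, were untreated cells (UT) and cells given LPS at 10 ng/ml for 30 min (LPS-30min), 1 h (LPS-1h), 2 h (LPS-2h) or 4 h (LPS-4h). All groups share strain and culture. ATAC-seq, in which a transposase inserts adapters into DNA that it can reach, was the readout. The labels do not say whether the 3 libraries of a group came from separate mice or cultures, so the spread between them may be technical.

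LPS is a component of the outer membrane of Gram-negative bacteria and is sensed by the receptor TLR4. Signalling from TLR4 activates the transcription factors NF-kB and AP-1 and, with a delay, factors of the interferon response. In macrophages these factors bind alongside the lineage factors PU.1 and C/EBP, and nucleosomes at enhancers and promoters are displaced. Part of this response is switched off again by induced inhibitors. A region that gains and loses accessibility within hours is one form such a response could take, while a peak that comes and goes can also lie close to the limit of detection.

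Peak lists on mouse build mm9, without reads, were the material. The lists held 52447 to 82222 nuclear peaks, and hold no read numbers. Depth is therefore unknown, values carry no counting intervals, and a region without a peak may still be accessible. The third replicate had the shortest list at every LPS time. The 4 h list of replicate 1 (81518 peaks) was longer than the 2 h list of replicate 1 (80899 peaks), while the 4 h list of replicate 3 held only 55777. Each peak has a score given by the peak caller, from 50 upwards, which orders peaks within its own list. It is given here also as a percentile, the share of that list's peaks with a lower score. An annotation of build mm9 was not used here, so regions are identified by position and gene, exon or intron are not given. For the same reason cell type markers were not looked up and no DNA sequence is shown.

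Having no peak in any library of the next time point was more frequent among regions gained at 2 h than among those gained earlier. At 2 h, 5272 regions (5.03% of all) had a peak in every library and in no untreated one, and 749 of them (14.2%) had none at 4 h. The 749 make up 0.714% of all regions, and the 601 members are those of them that had not been complete at 30 min or 1 h. Of the 786 regions gained at 30 min, 31 (3.94%) had no peak in any library at 1 h, which is 0.0296% of all regions. Of the 1756 gained at 1 h, 31 (1.77%) had none at 2 h, again 0.0296% of all regions. In the other direction, 179 of the 2928 regions gained at 4 h (6.11%) had no peak at 2 h, or 0.171% of all regions. These shares are counts of regions from unequal lists and were not tested against each other. The steps also differ in length, that from 2 h to 4 h being the longest. The mean list length was highest at 2 h (76692 peaks), although single lists of other times were longer than single 2 h lists. The parts of list length and step length in the order of the shares were not tested.

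The members were set beside the regions that started alike and ended differently. Under the same conditions up to 2 h, 1229 regions (1.17% of all) were called in every 4 h library and are named kept. A further 1832 regions (1.75%) were called in 1 or 2 of the 3 and are named partly kept. Together with the 601 members these are 3662 regions, of which members were 16.4%. The number of members depends on single libraries: without 2 h replicate 3 the rule found 1876, and without 4 h replicate 1 it found 1005.

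For most members a peak was called in at least 1 LPS library before 2 h, which counts even a single call. The matching share was not computed for kept or other variable regions, so an earlier call is not shown to be a trait of members. Shares by single library, given below, were higher in other variable regions than in members in every early library. No peak in any library at 30 min or 1 h was found for 171 members (28.5%). A peak at 1 h but not at 30 min was found for 221 (36.8%), at both times for 175 (29.1%) and at 30 min alone for 34 (5.66%). The largest class with an earlier peak was thus the one first called at 1 h. In 115 members (19.1%) the only earlier peak was that of replicate 2 at 1 h, the longest list before 2 h. Another 65 had peaks in replicates 1 and 2 at 1 h and in no other early library.

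By library, replicate 1 at 30 min called 71 members (11.8%), replicate 2 called 180 (30.0%) and replicate 3 called 29 (4.83%). The corresponding numbers at 1 h were 213 (35.4%), 347 (57.7%) and 28 (4.66%). Replicates 1 and 2 were higher at 1 h than at 30 min, by 23.6 and 27.8 percentage points, while replicate 3 was level (-0.166 points). These differences set libraries of the same number side by side, a pairing that the labels do not state. The mean was 15.5% ± 13.0 (SD, n = 3) at 30 min and 32.6% ± 26.7 (SD, n = 3) at 1 h, and the groups overlapped. Since the rule also used the calls at both times, leaving out regions complete at either, this difference is a description and carries no test. Of the 36919 regions of the genome called in 3 to 12 libraries, the same lists called 53.4%, 60.1% and 18.2% at 30 min and 50.9%, 63.6% and 13.5% at 1 h. Members were called less often than these regions in every early library. The rule favours this, since it leaves out regions complete at either time, a limit not set for the comparison regions. The regions called in 3 to 12 libraries were not called more often at 1 h than at 30 min on average (42.7% and 43.9%). Kept regions followed the same order, with 20.1% ± 16.3 at 30 min and 42.0% ± 32.8 at 1 h (SD, n = 3). Each 1 h library called a larger share of kept regions (47.4%, 71.8% and 6.92%) than of members, a difference that was not tested. The members' difference of 17.1 points between the times was 3.87 without 1 h replicate 2. With all lists cut to equal length the rule found 296 members, and only 59 of the 601 stayed members. The difference for those 296 was 23.4 points, and the groups no longer overlapped.

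**Figure D1:**
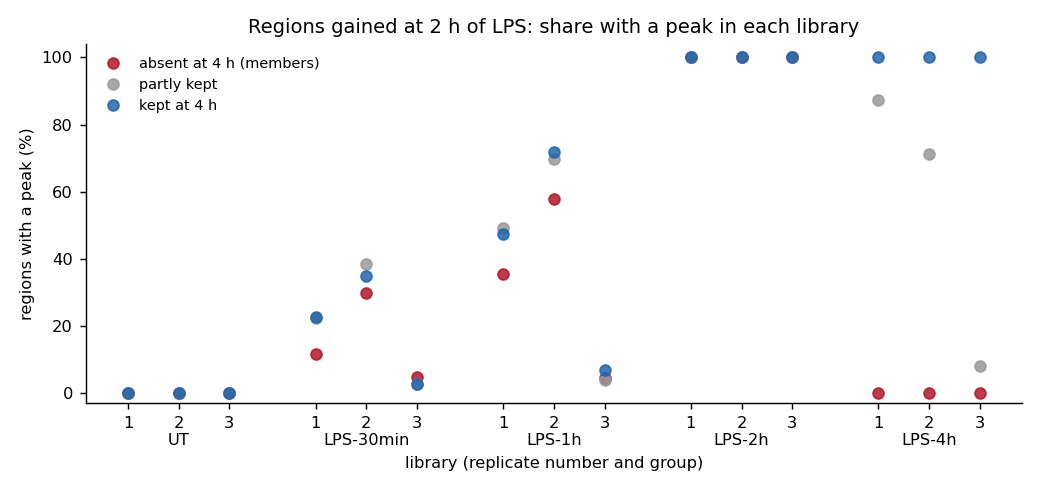
Share of regions with a peak (y axis, %) in each of the 15 libraries (x axis, replicate number and group), for members (red), partly kept regions (grey) and kept regions (blue). Values at UT and 2 h, and those of members and kept regions at 4 h, are set by the rule. At 1 h members lie at 35.4%, 57.7% and 4.66%, and replicate 3 is low for all 3 sets at 30 min, 1 h and, where free to vary, 4 h.

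At 2 h the members' peaks were weak for their lists. Their median score was 96.66 in replicate 1, 113.55 in replicate 2 and 77.02 in replicate 3, against list medians of 265.34, 268.39 and 259.62. As percentiles these medians stood at 21.9, 26.8 and 14.8. Kept regions stood at 47.0, 44.6 and 32.4 in the same lists, and partly kept regions lay between in all 3 (32.8, 31.4 and 16.9). Averaged over the libraries, the median percentile was 21.2 ± 6.02 for members and 41.3 ± 7.83 for kept regions (SD, n = 3). Members were lower in each of the 3 libraries, and the difference of members minus kept regions was -20.1 ± 4.27 points (SD, n = 3). With lists of equal length, where most members are other regions, it was -11.3 points. These scores come from the libraries that chose the members and are given without a test.

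**Figure D2:**
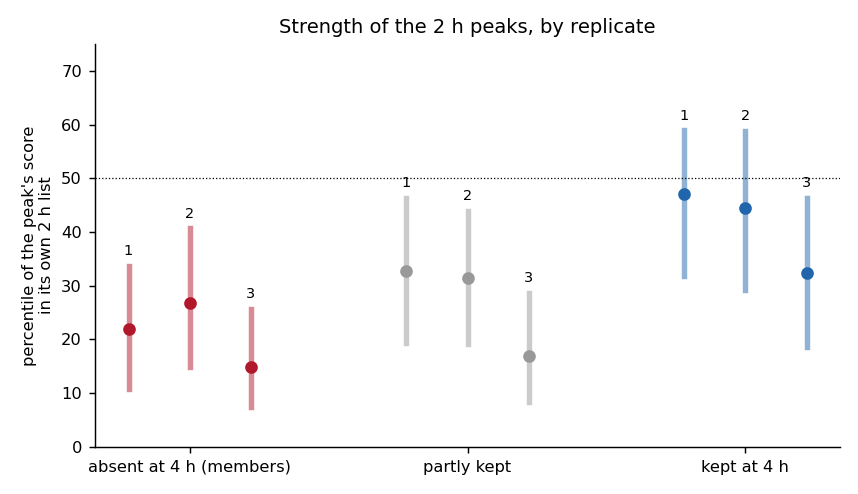
Percentile of the 2 h peak's score within its own list (y axis), shown as median (point) and middle 50% of regions (bar) for each replicate (1 to 3), in members, partly kept and kept regions. The dotted line is the middle of a list. Members' medians are 21.9, 26.8 and 14.8, below those of kept regions in every replicate.

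Few members were strong in all 3 lists. A score of 100 or more in every 2 h list was reached by 102 members (17.0%) and by 724 kept regions (58.9%). Scores of 200 or more in every list were found for 17 members (2.83%) and 297 kept regions (24.2%). At the other end, 165 members (27.5%) scored under 100 in all 3 lists, compared with 57 kept regions (4.64%). Only 4 members were above the middle of all 3 lists. The order of strength was also less repeatable among members. Across the 601 members, which share their libraries and lie in a narrow range of scores, Spearman's rho between percentiles was 0.53 for replicates 1 and 2, 0.30 for 1 and 3 and 0.34 for 2 and 3, while across kept regions it was 0.77, 0.63 and 0.61.

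The regions just outside each limit of the rule were compared in strength. With a peak in 1 untreated library and all else equal there were 135 regions, with a median percentile of 15.4 over the 2 h peaks, against 20.6 for members. With a peak in 2 of 3 libraries at 2 h there were 1731 (median 12.8 over the peaks present). With a peak in 1 of 3 libraries at 4 h there were 610 (median 22.9). The limit at 4 h thus has 610 regions 1 library outside it and 601 inside. Of these 610, replicate 1 held the 4 h peak of 401, replicate 2 that of 169 and replicate 3 that of 40, and those peaks stood at the median percentiles of 15.1, 10.9 and 10.6 of their lists. A further 148 regions met every condition except that they had been complete at 30 min or 1 h, and these were stronger at 2 h (median 35.4). Inside that limit, 213 members were called in 2 of the 3 libraries of either early time, with a median of 22.2.

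How often a 2 h region had no peak in any 4 h library followed its strength at 2 h. Strength and absence are both read from libraries that the rule used, so this is a description and carries no test. Among the 3662 regions ordered by their mean percentile at 2 h, members were 39.1% of the 184 regions in the lowest band of 10 percentile points and 24.6% of the 771 in the next. The share was 20.6% from 20 to 30, 11.5% from 30 to 40 and 7.20% from 40 to 50. It was 6.21% from 50 to 60 and 4.11% (6 of 146 regions) from 60 to 70, and none of the 52 regions from 70 to 80 was a member. Kept regions ran the other way, from 9.24% in the lowest band to 90.4% in that from 70 to 80. The 4 h library with the longest list, replicate 1, had a peak in 50.5% of the regions of the lowest band and in 70.9% of those from 20 to 30, while replicate 3 had one in 14.1% and 29.0%.

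**Figure D3:**
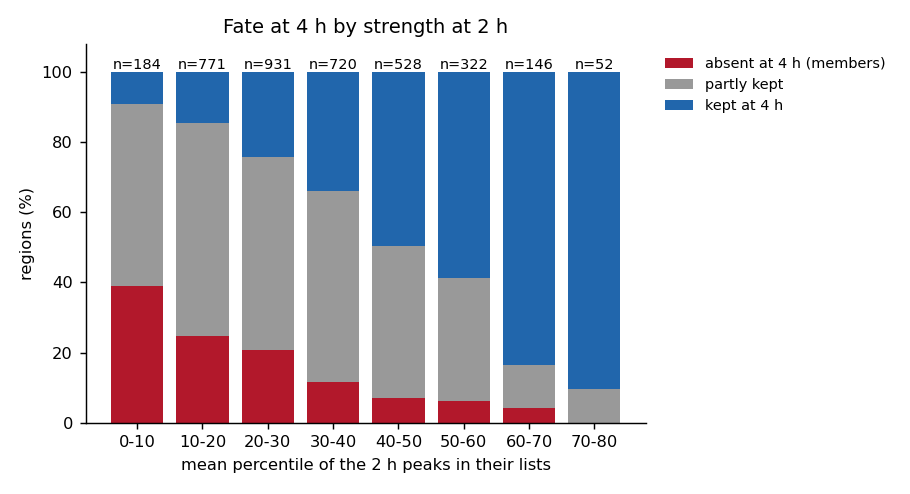
Share of regions (y axis, %) that were absent (red), partly kept (grey) or kept (blue) at 4 h, by the mean percentile of their 2 h peaks (x axis, bands of 10 points, number of regions above each bar). Bands with fewer than 20 regions are not drawn. The share of members runs from 39.1% in the weakest band to 4.11% from 60 to 70.

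The strongest members are those whose 2 h peaks ranked highest in all 3 lists, while how near they came to a peak call at 4 h is not known. They were named by the lowest of their 3 percentiles at 2 h, and the 20 highest had scores of 190.15 to 1202.78 on 12 chromosomes. The region on chromosome 13 at 97412361 to 97413891 came first. It scored 353, 1202.78 and 442.42 in the 2 h libraries, 81.49 in replicate 2 at 30 min and 150.59 in replicate 2 at 1 h, with no peak in the other 10 libraries. It stood 101511 bp from the nearest kept region and 24698 bp from the nearest region with a peak in all 15 libraries, so it was separate from both.

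The second, on chromosome 11 at 99104787 to 99106437, scored 596.93, 478.76 and 315.31 at 2 h and 90.54 in replicate 2 at 1 h. The third, on chromosome 2 at 22621748 to 22623087, scored 431.01, 746.13 and 304.29 at 2 h and 126.74 in replicate 2 at 1 h. Both therefore had 1 weaker peak in the longest early list and none at 30 min. The fourth, on chromosome 3 at 107891172 to 107892807, scored 310.68, 551.32 and 274.41 at 2 h and had peaks in replicates 2 and 3 at 1 h (163.35 and 79.35). It lay only 546 bp from a region with a peak in all 15 libraries. Rank 5, on chromosome 1 at 153572460 to 153574136, scored 259.47, 378.20 and 295.85 at 2 h and likewise had peaks in replicates 2 and 3 at 1 h (85.82 and 54.82). These were the only 2 of the 20 with a peak in replicate 3 at 1 h, the shortest of all lists.

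Ranks 6 and 7 fell to neighbours on chromosome 4. The region at 150191018 to 150192549 scored 253.81, 267.78 and 335.87 at 2 h. The region at 150094797 to 150096715 scored 1070.04, 727.02 and 246.78 at 2 h and 333.30 in replicate 2 at 1 h. The latter had the highest replicate 1 score of all members. The eighth, on chromosome X at 71665438 to 71666986, scored 424.45, 254.79 and 309.84 at 2 h, with a peak of 56.45 in replicate 2 at 1 h.

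Of the 20 strongest members, 17 had a peak at 1 h and all 17 had it in replicate 2, 8 in replicate 1 and 2 in replicate 3. Only 3 had a peak at 30 min. In 6 of the 20 an earlier peak had a higher score than the lowest of the 2 h peaks, although scores of different lists are not on a common scale. Among these was the region on chromosome 11 at 67968035 to 67970783, where the score rose at each time in replicates 1 and 2. It scored 99.01 and 185.06 in replicates 1 and 2 at 30 min, 275 and 571.54 at 1 h, and 547.07 and 1056.80 at 2 h, with 209.58 in replicate 3 at 2 h. Replicate 3, whose 2 h score there was the lowest, had no peak at 30 min or 1 h. The region on chromosome 14 at 60154985 to 60156486 also had peaks in replicates 1 and 2 at 30 min (50.69 and 89.68) and at 1 h (52.31 and 126.16), and scored 497.34, 217.53 and 273.64 at 2 h.

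**Figure D4:**
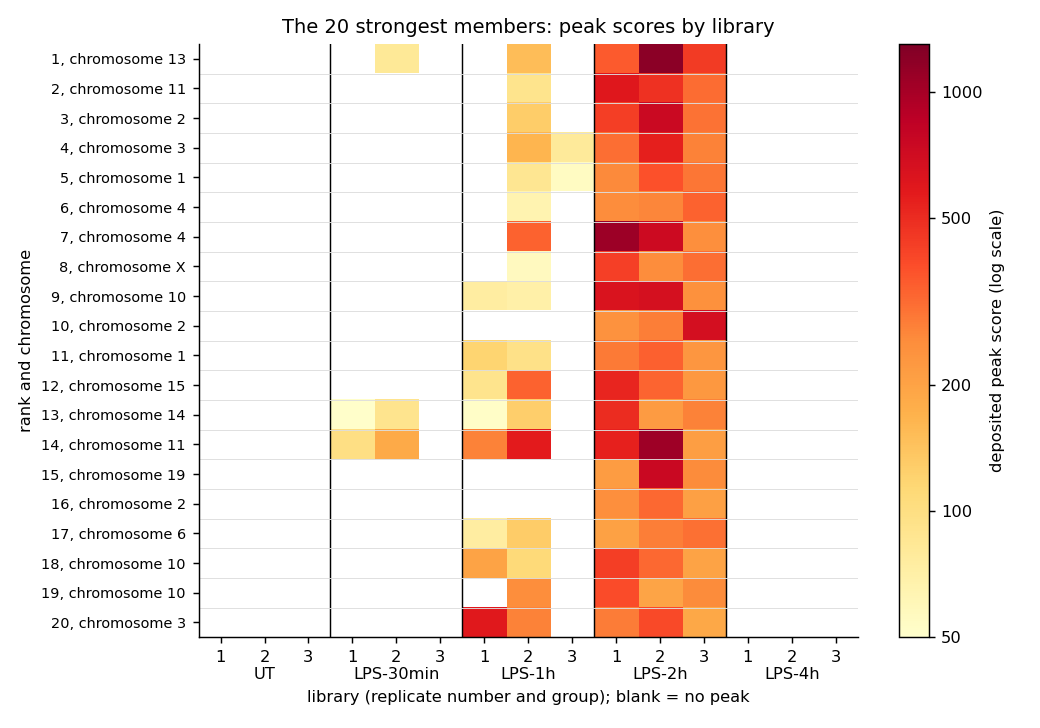
Deposited peak score (colour, log scale) of the 20 strongest members (rows, by rank and chromosome) in each library (columns, replicate number and group), where blank means no peak. The 2 h scores run from 190.15 to 1202.78, and 17 of the 20 have a peak in replicate 2 at 1 h.

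Members without any earlier peak were seen at 2 h alone in the whole time course. The strongest was on chromosome 2 at 11286532 to 11287688, with scores of 240.83, 280.88 and 675.57. Second was a region of chromosome 19, 14626690 to 14628513 (213.65, 755.82 and 256.44), and the third was on chromosome 2 at 156489462 to 156491543 (246.29, 323.75 and 207.46). Next came chromosome 11 at 101315030 to 101317019 (319.85, 189.50 and 185.05), which lay 276 bp from a kept region, and chromosome 4 at 151493950 to 151495732 (379.97, 372.28 and 182.50). As a class the 171 members without an earlier peak had median percentiles of 18.3, 21.6 and 13.4 at 2 h. The 221 first called at 1 h stood at 25.2, 31.5 and 17.0, and the 34 with a peak at 30 min alone at 11.9, 12.7 and 9.92. The members that were first seen at 1 h were thus the strongest class in every 2 h library, closely followed by those called at both times.

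Among members with peaks in 2 of 3 libraries at 1 h, the highest by strength were the regions ranked 4 and 5 above and 3 others, which had their 1 h peaks in replicates 1 and 2. On chromosome 10 at 19863177 to 19867541 the 1 h scores were 74.80 and 70.41 and the 2 h scores 635.75, 667.83 and 244.31. On chromosome 1 at 64086232 to 64088002 they were 117.46 and 94.93 at 1 h and 288.94, 341.27 and 229.35 at 2 h. On chromosome 15 at 51194224 to 51195533 they were 90.19 and 335.07 at 1 h and 521.11, 331.92 and 226.53 at 2 h. This last region was isolated, 278070 bp from the nearest region with a peak in all libraries.

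Members were narrower than kept regions. Their merged regions had a median width of 1428 bp, the middle 50% lying between 1260 and 1599 bp, and kept regions had a median of 1701 bp. Within the 2 h libraries the median peak width was 1109, 1166 and 1149 bp in members and 1334, 1289 and 1309 bp in kept regions, a mean of 1141 ± 29.3 against 1311 ± 22.5 bp (SD, n = 3), with no test for the reason given for the scores. The difference of -169 bp was -54.7 with lists of equal length, -108 with peaks scoring 100 or more and -97.3 without 4 h replicate 3. With equal lists or the score limit, most members are other regions. The peaks of the 3 libraries fell on the same place. In 599 of the 601 members they shared a common interval, of a median 883 bp, and the centres of the 3 peaks spanned a median of 155 bp, against 166 bp in kept regions. In 583 members each 2 h library had a single peak.

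Wide members were few: 11 (1.83%) exceeded 3 kb, and 94 kept regions (7.65%) did. The widest by its smallest 2 h peak was the region on chromosome 10 at 19863177 to 19867541, with peaks of 4365, 3346 and 2502 bp. The next were 2 regions on chromosome 3, at 50214226 to 50218660 (2727, 3910 and 2032 bp) and at 50178836 to 50181704 (2488, 2762 and 1952 bp). They were followed by that on chromosome 11 at 67968035 to 67970783 (2539, 1950 and 1902 bp) and one on chromosome 6 at 97932914 to 97935334 (2318, 1998 and 1728 bp), which had no peak before 2 h. The pair on chromosome 3 belonged to a single stretch.

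Most members stood alone, but some lay in runs. Members no more than 50 kb apart were joined into stretches: 509 members were single and 64 formed 32 pairs, and there were 2 stretches of 3 members, 1 of 4, 2 of 5 and 1 of 8. Of all members, 92 (15.3%) had another member within 50 kb and 74 (12.3%) had a kept region that near. For kept regions, which are more numerous, 346 of 1229 (28.2%) had another kept region within 50 kb and 88 (7.16%) had a member. The 5 stretches with most members are described with the peaks of every library, an account chosen after seeing the data. Since members lie in them by definition, no test is given.

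The largest stretch, on chromosome 4 at 117626766 to 117786682, held 8 members among 34 regions in 160 kb. All 34 had a peak at 2 h in at least 1 library, 12 did so at 4 h and 8 in untreated cells. Regions with a peak numbered 7, 8 and 5 in the untreated libraries, 10, 10 and 4 at 30 min, 12, 14 and 5 at 1 h, 23, 34 and 20 at 2 h and 12, 12 and 7 at 4 h. Each 2 h library was above every other library. Peaks covered 26.3% ± 8.83 of the stretch at 2 h and 10.0% ± 1.92 at 4 h, with 5.12% ± 1.13 in untreated cells (SD, n = 3). Its members were individually weak, and the strongest by lowest percentile, at 117649339 to 117651473, scored 92.73, 98.68 and 89.20.

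The stretch on chromosome 3 at 97878792 to 97952530 held 5 members among 16 regions. Peaks covered 3.396%, 7.88% and 8.38% of it in the untreated libraries, 7.82%, 6.97% and 5.27% at 30 min, 8.84%, 14.99% and 3.64% at 1 h, 52.5%, 59.5% and 38.9% at 2 h and 10.7%, 17.0% and 6.82% at 4 h. The 2 h libraries were far above all others, and those at 4 h overlapped with those at 1 h. Of its 5 members 4 had no earlier peak, and the exception, at 97880463 to 97884357, had 1 of 73.44 in replicate 2 at 1 h. Coverage of the 50 kb below this stretch was 74.1% ± 3.51 at 2 h, 52.7% ± 13.3 at 4 h and 42.3% ± 8.45 in untreated cells (SD, n = 3). In the 50 kb above it coverage was 10.1% ± 3.07 at 2 h and 7.08% ± 2.44 at 4 h. The stretch therefore borders on a segment that was already accessible in untreated cells on one side only.

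The stretch on chromosome 3 at 50165841 to 50218660 held 5 members among 10 regions and was already partly covered at 1 h. Coverage was 11.7%, 11.999% and 8.96% in the untreated libraries, 17.1%, 19.4% and 12.2% at 30 min, 64.8%, 43.5% and 24.5% at 1 h, 61.9%, 79.9% and 58.6% at 2 h and 30.9%, 28.1% and 24.5% at 4 h. Replicate 1 was thus as high at 1 h as the 2 h libraries were, while replicate 3 at 1 h was as low as at 4 h. Coverage at 4 h remained above every untreated library, so absence of the members was not a full return of the stretch. Its highest-scoring member at 1 h, at 50214226 to 50218660, scored 590.24 and 274.78 in replicates 1 and 2 at 1 h and 284.27, 396.52 and 190.15 at 2 h. The member at 50165841 to 50170143 had no peak at 1 h and scored 229.67, 620.05 and 166.05 at 2 h.

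The other 2 stretches differed less between times. That on chromosome 4 at 150094797 to 150192549, which contains the members ranked 6 and 7 by strength, was covered to 18.8% ± 1.03 at 2 h, 13.8% ± 4.17 at 1 h and 11.7% ± 3.40 at 4 h (SD, n = 3). Its other 2 members scored no more than 77.95. That on chromosome 2 at 156489462 to 156564763, with 3 members, was covered to 27.0% ± 2.05 at 2 h and 17.8% ± 1.90 at 4 h, against 14.0% ± 3.52 in untreated cells. In this stretch all 3 libraries at 2 h were above all others. Higher mean coverage at 2 h than at 4 h was not confined to the 5 stretches. The 50 kb flanks of the largest were covered to 23.8% and 29.1% at 2 h, against 16.2% and 19.7% at 4 h. Above the chromosome 4 stretch at 150094797 coverage was 33.0% at 1 h, 29.7% at 2 h and 11.1% at 4 h. Only the flank below the chromosome 2 stretch was not higher at 2 h (2.43%) than at 4 h (2.68%).

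**Figure D5:**
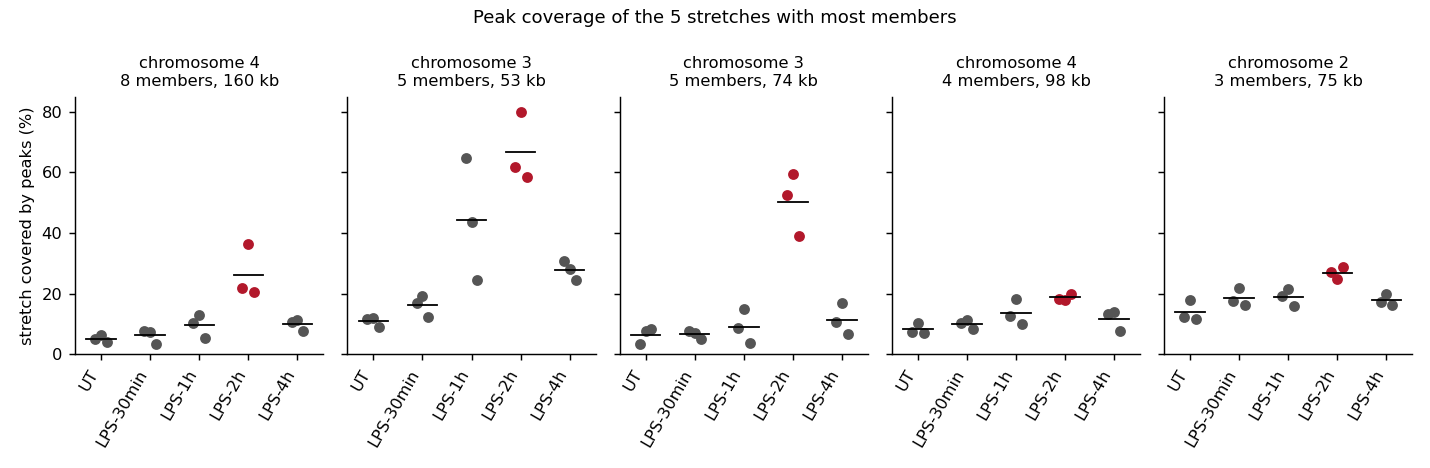
Share of each stretch covered by peaks (y axis, %) in every library (points) with group means (lines) at each time (x axis, group), for the 5 stretches with most members. The 2 h libraries (red) reach 38.9% to 59.5% in the 74 kb stretch on chromosome 3, where those at 4 h reach 6.82% to 17.0%.

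Regions around the members were also more often called at 2 h than at 4 h. They lie beside regions chosen for that course in the same libraries, so their values are a description and carry no test. Non-member regions within 10 kb of a member, without those gained at 2 h and those present in all libraries, numbered 831. A peak was found in 56.6%, 64.3% and 40.2% of them in the 2 h libraries and in 50.8%, 44.5% and 24.5% at 4 h. To allow for the length of the lists, the share of all 64806 such regions of the genome with a peak in the same library was subtracted. The size of the excess may still depend on list length. The excess near members was 4.29, 10.2 and 7.30 percentage points at 2 h, -3.65, -2.66 and 3.58 at 4 h and -5.70, -3.10 and -4.55 in untreated libraries. The 2 h libraries lay above all 4 h and untreated libraries. An excess near members was not confined to 2 h. At 1 h the shares were 45.4%, 55.4% and 19.01% near members, against 40.5%, 48.1% and 17.1% of all such regions. In replicate 1 this gap was wider at 1 h than at 2 h. At 30 min the share near members was below that of all such regions in each library. The difference in excess between 2 h and 4 h was 8.19 points. It was 13.5 points with lists of equal length, where most members are other regions. It was 0.429 on the interval common to the 2 h peaks, where every unit has a 2 h peak by construction.

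The corresponding excess near kept regions ran in the opposite direction, at 5.55 ± 0.628 points at 2 h and 10.1 ± 1.54 at 4 h (SD, n = 3), a difference of -4.55. Near partly kept regions the difference between 2 h and 4 h was 3.87 points, between those of members and kept regions. The 3 sets differ by the 4 h calls that define them. This measure was chosen after seeing the data.

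Members lay about as far from the regions called in every library as other variable regions did, a comparison given without a test whose sign changed with the processing. The nearest region with a peak in all 15 libraries was a median of 9635 bp away from members, 9156 bp from kept regions and 9753 bp from the 36919 regions called in 3 to 12 libraries. Within 1 kb of such a region lay 67 members (11.1%), and 24 (3.99%) were more than 100 kb away. The corresponding share within 1 kb was 11.7% for kept regions and 11.1% for those in 3 to 12 libraries.

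Members occurred on all autosomes and on chromosome X. By share of the chromosome's regions, chromosome X was highest, with 30 members among 2250 regions (1.33%), followed by chromosome 2 with 66 of 8479 (0.778%). Lowest of the autosomes were chromosome 8 with 15 of 5062 (0.296%) and chromosome 16 with 12 of 4016 (0.299%). Of the regions gained at 2 h on chromosome X, 23.4% were members, while on the autosomes this share ran from 5.11% on chromosome 16 to 16.2% on chromosome 4. Kept regions made up 1.47% of the regions of chromosome X and 1.74% of those of chromosome 16. These shares are counts over regions and were not tested.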

How the data were processed

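Peak lists of 15 ATAC-seq libraries (5 groups of 3) were analysed. Per the submitters' processing notes, Bowtie 1.1.2, MACS 1.4 and build mm9 were used. The sources used here do not give their settings, nor whether duplicates were removed, reads shifted for the transposase, or a control or blacklist used. Each library has a list deposited by the authors, with start, end and score of every peak. Values of this deposited score run from 50 to 3233.06, with many peaks tied at 3100. By its range it may be a scaled p-value, which no header states. Groups come from sample titles. The 2 mitochondrial peaks per list were left out. Coordinates count the first base as 1.

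Regions, the rule and percentiles (ties at their middle) were computed with Python 3.11.15, numpy 2.4.6, pandas 2.3.3 and scipy 1.17.1, and tested on simulated lists. Of several peaks of a library in a region, the highest score and the largest width were used. Members, comparison sets and lists were chosen with earlier results of these data known. Exact permutation and sign-flip tests of scores, widths, early calls and nearby regions were computed but are not quoted, since the same libraries chose the members. Regions were named by strength (20 strongest, lowest percentile in the 2 h lists), width, course and stretches (5 each, equal sizes ordered by their strongest member). Deviations of same-numbered libraries from group means correlated at 0.106, 0.114 and 0.251 between 30 min and 1 h, all over 0.1, so the numbers were taken as pairs there. The pairing is an assumption, since the labels do not state it and the limit of 0.1 was a choice. Between 2 h and 4 h they correlated at 0.139, 0.0506 and 0.151. Planned work on genes, markers, motifs and base composition needs a genome of build mm9 and was not done.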

Additional observations from a re-analysis of the deposited data

How the results depend on the processing

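The number of members depended on list length and on single libraries. It was 296 with all lists cut to the 52447 strongest peaks, 526 with a score of 100 or more, 710 with peaks covering 50% of the region, 777 with presence on the interval common to the 2 h peaks, and 568 with peaks up to 200 bp apart merged. Leaving out a library gave 428 to 1876, the highest without 2 h replicate 3, and 1005 without 4 h replicate 1. Which regions are members depended on it too. With equal lists 59 of the 601 (9.82%) stayed members, and with a score of 100 or more 102 (17.0%) did. They made up 19.9% and 19.4% of the members found there. All 20 of the strongest stayed in both. Both settings only remove weak peaks and the 20 were chosen by 2 h strength, so this was set by their choice. At least 549 of the 601 stayed under the 3 other settings. Of the 20 strongest, 12 stayed without 1 h replicate 3, and 18 or more without any other library.

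Members' 2 h percentile minus that of kept regions was -20.1 points, -11.3 with equal lists, -25.0 with 50% cover, and -24.7 to -13.9 with a library left out. Their width difference of -169 bp was -108 with a score of 100 or more, -54.7 with equal lists, -240.5 with 50% cover, and -223.75 to -97.3 with a library left out, the latter without 4 h replicate 3. The distance difference of 479 bp had no stable sign: it was -3650.5 with a score of 100 or more, -1645 with equal lists, -2098.5 with 50% cover, and -663 to 1268 with a library left out. The 1 h minus 30 min difference of 17.1 points was 3.87 to 24.7 with a library left out, and 23.4 with equal lists. The replicate block leaves it at 17.1 points and, like it, carries no test. The excess near members, 2 h minus 4 h, was 6.50 to 10.7 points with a library left out and 13.5 with equal lists. On the common interval it was 0.429, where every unit has a 2 h peak by construction. The replicate block leaves it at 8.19 points. The causes of these shifts were not tested. Depth is unknown, and absence of a peak is not absence of accessibility. Other windows for base composition, motifs and distance to genes were not run, since these need a genome of build mm9.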
